A study of Mus musculus with 12 samples.

Results

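Core histone genes and their variants were represented by 66 of the 35512 probe sets on the arrays. They were chosen by annotation, with earlier results of these data already known. A probe set belonged if its annotation named an H2A, H2B, H3 or H4 gene, under a current or an older symbol. It also belonged if it named one of the variants H2az1, H2az2, H2ax, H2aj, Macroh2a1, Macroh2a2, H3f3a and H3f3b. Linker histones (H1) did not count as members. A single symbol was named by 33 probe sets, which stood for 32 genes because H2az1 had 2. Several histones were named together by 25 probe sets, and 8 named 1 histone together with another gene. These kinds are kept apart below, since a value for several near-identical genes cannot be split among them.

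The cells were NIH3T3, an immortalised line of mouse fibroblasts grown in serum. RNA came from 4 groups of 3 arrays each, which the design text calls biological replicates: cells given sirUBF oligo #1 (oligo 1 below), cells given sirUBF oligo #2 (oligo 2), cells given sirEGFP, an siRNA named for a fluorescent protein, and Mock cells, which received the transfection reagent without siRNA. Transfection was at 40 nM siRNA, and cells were lysed for RNA 48 h later. The oligos target UBF, the product of Ubtf, a nucleolar factor for the transcription of ribosomal DNA.

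Core histones form the protein spool around which DNA is wound in a nucleosome, with H2A, H2B, H3 and H4 as its components. Most H2A, H2B, H3 and H4 genes lie in clusters, are transcribed mainly in S phase when new chromatin is assembled, and give mRNAs that end in a stem-loop instead of a poly(A) tail. Variants such as H2A.Z (H2az1, H2az2), H2A.X (H2ax), macroH2A (Macroh2a1, Macroh2a2) and H3.3 (H3f3a, H3f3b) are encoded outside those clusters and several are made throughout the cell cycle. The sources used here do not say how the labelling kit primed mRNAs without a poly(A) tail.

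The members most involved in the results below differ in what stands before their start sites. The 200 bases upstream of the annotated start are shown, as RefSeq gives them on GRCm38.p6, for 2 H4 genes, 2 H2B genes and the variant H2az2, the genes with a promoter in the table that had their own probe set and were called lower with oligo 1 than in Mock. Capitals mark, on either strand, the octamer ATTTGCAT that is known from H2B promoters, the TATAAA box, the CCAAT box (written ATTGG where it lies on the other strand) and the string GGTCCG, found in the proximal element of H4 promoters. In these 5 stretches no motif overlapped another.
H4c4, chr13:23581368-23581567, plus strand: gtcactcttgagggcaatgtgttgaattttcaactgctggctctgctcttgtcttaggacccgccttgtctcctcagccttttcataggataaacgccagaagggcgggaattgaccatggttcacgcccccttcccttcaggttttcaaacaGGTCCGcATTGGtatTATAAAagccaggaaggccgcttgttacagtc
H4c6, chr13:23551669-23551868, minus strand: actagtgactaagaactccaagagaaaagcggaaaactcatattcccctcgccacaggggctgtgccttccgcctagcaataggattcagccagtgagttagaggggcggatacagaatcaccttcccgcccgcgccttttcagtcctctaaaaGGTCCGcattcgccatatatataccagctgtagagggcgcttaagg
H2bc3, chr13:23746534-23746733, plus strand: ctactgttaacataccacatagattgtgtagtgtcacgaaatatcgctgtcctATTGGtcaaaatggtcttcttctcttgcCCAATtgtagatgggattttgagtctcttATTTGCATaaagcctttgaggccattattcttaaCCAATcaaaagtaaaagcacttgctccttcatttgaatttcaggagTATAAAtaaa
H2bc14, chr13:21721844-21722043, plus strand: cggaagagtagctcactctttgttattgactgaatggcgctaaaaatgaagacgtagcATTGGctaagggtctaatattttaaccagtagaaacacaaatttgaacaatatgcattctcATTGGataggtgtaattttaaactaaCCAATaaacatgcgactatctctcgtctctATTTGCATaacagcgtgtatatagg
H2az2, chr11:6444444-6444643, minus strand: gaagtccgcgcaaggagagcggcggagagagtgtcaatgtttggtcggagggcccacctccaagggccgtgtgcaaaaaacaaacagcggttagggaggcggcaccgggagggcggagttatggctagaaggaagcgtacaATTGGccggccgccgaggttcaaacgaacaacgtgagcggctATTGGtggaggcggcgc

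The octamer stood 90 bases before the start in H2bc3 and 25 bases before it in H2bc14. GGTCCG stood 47 bases before the start in H4c4 and 46 in H4c6. Counted over all genes named by the members, the octamer was in 7 of 15 H2B promoters, 7 of 18 H2A promoters, 0 of 10 H3 promoters and 0 of 12 H4 promoters, and in 1.38% of all 32851 promoter windows of the same length. GGTCCG was in 9 of 12 H4 promoters and in 1 of 15 H2B promoters, against 5.62% of all windows. CCAAT was in 15 of 15 H2B and 18 of 18 H2A promoters but in 3 of 12 H4 promoters, against 29.3% of all windows. TATAAA was in 5 of 12 H4 and 6 of 15 H2B promoters, against 9.96% of all windows. A match is a description of letters and not of a bound site. H2bc4, H2bc21, H4c14, H2ax, H3c1 and H3c7 had no entry in the table used and are named only.

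The median log2 value of an array was 5.38 to 5.54. Of 9 measured fibroblast markers, 7 were among the top 25% of all probe sets by level, and no marker measured for epithelium, macrophages, endothelium, skeletal muscle or testis germ cells did. Ubtf stood at 8.0, 7.74 and 7.64 with oligo 1, at 7.90, 7.83 and 7.49 with oligo 2, at 8.68, 8.31 and 8.04 with sirEGFP and at 8.54, 8.63 and 8.41 in Mock. All 6 knockdown arrays were below all 6 control arrays, while the change against sirEGFP did not pass over the whole table (adjusted p = 0.157 in limma for the mean of both oligos). Oligo 1 arrays 1 and 2 and sirEGFP array 1, chosen from earlier results, are called the 3 arrays that stood apart. Their limma array weights of 0.432, 0.430 and 0.549 were the lowest, against 0.739 to 9.67 (oligo 1 array 3) for the other 9. Results that rest on them are also given without them, which leaves oligo 1 with 1 array, assumed to vary like the other groups.

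With oligo 1, H4 transcripts fell and the H2B gene H2bc4 rose relative to sirEGFP, and 58 of the 66 members had a negative change, most without passing the test. With oligo 2, no member passed against sirEGFP in the main fit, which used all probe sets and arrays, unweighted and without a replicate block. Against Mock, H2bc3 alone passed with oligo 2, and it was lower. When each comparison with oligo 1 was fitted on its own groups only, or without the 3 arrays that stood apart, none of the 66 members passed, and of all 35512 probe sets 0 passed for oligo 1 against sirEGFP and against Mock in both fits, and 6 and 0 against oligo 2. Each change is a difference of log2 means, tested with limma over all 35512 probe sets and called at a Benjamini-Hochberg adjusted p under 0.05. Against sirEGFP, oligo 1 changed 7 of 66 members, 1 higher and 6 lower, where 0.687% of all probe sets were called (0.248% higher, 0.439% lower). Of the 6 lower, 5 named the same 11 H4 genes, so they were not separate measurements. Oligo 2 changed 0 of 66, where 0.786% of all probe sets were called. An unadjusted p under 0.05 was found for 8 of 66 members and for 10.3% of all probe sets in that comparison. With the replicate number as a block, oligo 2 changed 2 members against sirEGFP, both higher: H2az2 at 0.61 (adjusted p = 0.0385 in limma) and H2bc4 at 1.16 (adjusted p = 0.0393), with 382 of all probe sets called in place of 279. The mean of both oligos gave 5 of 66, 1 higher and 4 lower, where 0.459% of all probe sets were called (0.293% higher, 0.166% lower). After median centring the mean comparison had 2 members called, 1 higher and 1 lower, and after quantile normalization 3, 1 higher and 2 lower. The median change of the 66 members was -0.36 with oligo 1 and -0.10 with oligo 2, beside 0.0037 and -0.03 over all probe sets. Because bulk RNA was measured, fewer cells in S phase and less histone mRNA per cell cannot be told apart.

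**Figure D1:**
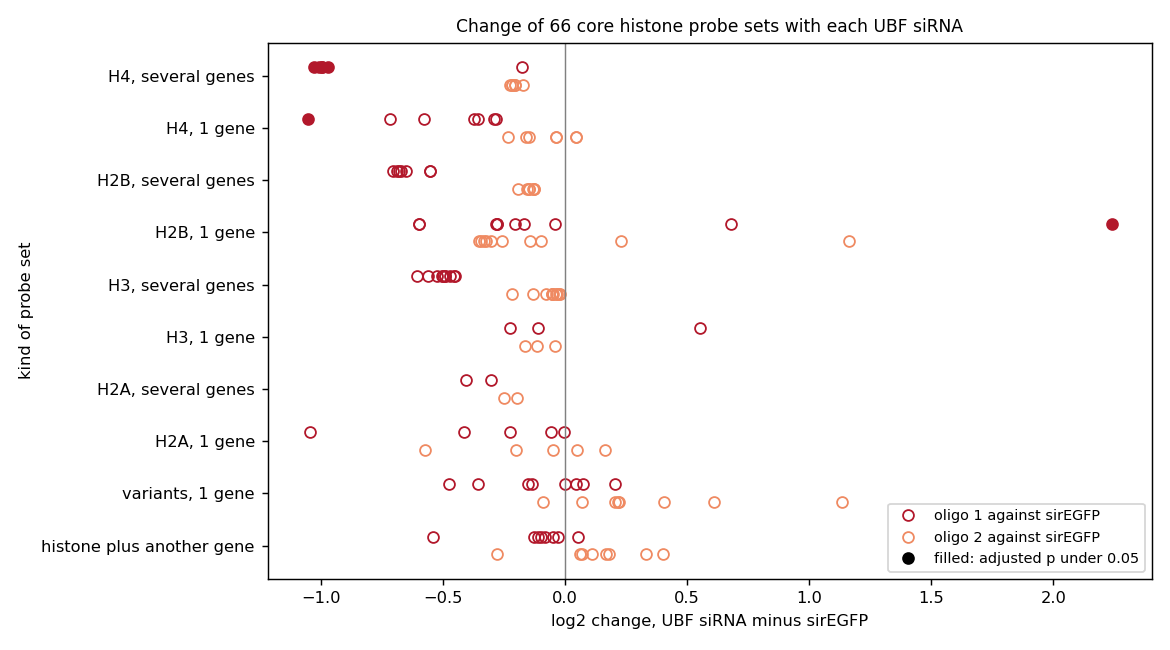
Log2 change against sirEGFP (horizontal axis) of each of the 66 core histone probe sets, in rows by family and kind of probe set, for oligo 1 (dark red) and oligo 2 (orange); filled points passed the test. The filled points are 5 H4 probe sets naming several genes and H4c4 on the left and H2bc4 at 2.24 on the right, all with oligo 1.

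Against Mock, oligo 1 changed 20 of 66 members, where 0.955% of all probe sets were called (0.425% higher, 0.529% lower): H2bc4 was higher, and 19 were lower. Oligo 2 changed 1 of 66 against Mock, H2bc3, which was lower, where 1.45% of all probe sets were called (0.504% lower). Oligo 1 lay below oligo 2 in 8 of 66 members, where 1.48% of all probe sets were called (1.0% lower). Between sirEGFP and Mock, 0 of 66 members and 0.0% of all probe sets were called by limma, while 11 members, all lower with sirEGFP, and 5.01% of all probe sets had an unadjusted p under 0.05. The oligos share their controls, so these comparisons are not independent of each other. Values were identical on all 12 arrays for 1 pair of H2B probe sets and for 1 pair of H4 probe sets. With each such pair counted once, the 64 members left gave 1 higher and 5 lower for oligo 1 against sirEGFP. They gave 1 higher and 17 lower for oligo 1 against Mock, and 7 lower for oligo 1 against oligo 2. Among the 66, groups of 5 H4, 7 H2B and 10 H3 probe sets each named largely the same genes and measured overlapping transcripts. Shares of members called are therefore not shares of independent genes.

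All 6 probe sets that fell with oligo 1 against sirEGFP belonged to H4. H4 pairs with H3 to form the tetramer at the centre of the nucleosome, and its gene copies encode the same protein. A group of 5 probe sets named the same 11 H4 genes, H4c1, H4c2, H4c3, H4c4, H4c6, H4c8, H4c9, H4c11, H4c12, H4c17 and H4c18, so they measured overlapping sets of transcripts. Probe set 10408074 stood at 9.06, 9.25 and 9.04 with oligo 1, at 10.05, 9.98 and 9.72 with oligo 2, at 10.24, 10.13 and 10.06 with sirEGFP and at 10.33, 10.41 and 10.15 in Mock. The oligo 1 arrays lay below the other 9 without overlap, and the highest oligo 2 array lay just below the lowest sirEGFP array. A share of all probe sets without overlap is given below only for both oligos against both controls. Where 1 oligo alone did not overlap other groups, here and below, this describes the arrays only. The level of 10408074 was 51.0% lower with oligo 1 than with sirEGFP, a log2 change of -1.03 ± 0.12 (SE; adjusted p = 0.00951 in limma). With oligo 2 the change was -0.23 ± 0.12 (SE; adjusted p = 0.58). The difference between the oligos was itself called, at -0.80 with an adjusted p of 0.0115, and was lost without oligo 1 array 3, oligo 2 array 1 or oligo 2 array 2, with an adjusted p of 0.0525 to 0.0585. The mean of both oligos against sirEGFP called 4 of the 5, 10408074 at -0.63 (adjusted p = 0.0329), a call lost on leaving out any 1 of 9 arrays, with an adjusted p up to 0.159.

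The other 4 of these probe sets behaved alike: their log2 changes with oligo 1 were between -1.01 and -0.97, all called, and with oligo 2 between -0.22 and -0.20, none called. Averaged over the 5, the level was 8.72 ± 0.13 with oligo 1, 9.51 ± 0.18 with oligo 2, 9.72 ± 0.09 with sirEGFP and 9.90 ± 0.15 in Mock (SD, n = 3 each). The calls against sirEGFP were lost without sirEGFP array 2, where 10408074 had an adjusted p of 0.0505 in limma, and without oligo 1 array 3, where it had 0.052. Without the 3 arrays that stood apart the change of 10408074 was -1.06, with an adjusted p of 0.156. The sixth H4 probe set of this kind, 10403945, named H4c11 and H4c17 only and was not called in any comparison, with changes of -0.18 with oligo 1 and -0.17 with oligo 2 against sirEGFP.

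Of the 7 H4 probe sets with a single symbol, H4c4 fell with oligo 1. It stood at 8.18, 8.39 and 8.38 with oligo 1, at 9.44, 9.25 and 8.98 with oligo 2, at 9.62, 9.27 and 9.22 with sirEGFP and at 9.71, 10.05 and 9.28 in Mock. The oligo 1 arrays were below all others, while the oligo 2 and sirEGFP arrays overlapped. Its change against sirEGFP was -1.05 ± 0.20 (SE; adjusted p = 0.0398 in limma) with oligo 1, against -0.15 ± 0.20 with oligo 2. The direct difference between the oligos was -0.91, with an adjusted p of 0.0491. These calls were close to the threshold: the call against sirEGFP was lost on leaving out any 1 array but Mock 2 and Mock 3, with an adjusted p up to 0.139. Without the 3 arrays that stood apart the change was -0.86 (adjusted p = 0.387).

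The other H4 genes with their own probe set lay lower with oligo 1 as well, without passing against sirEGFP. H4c6 had 5.01, 4.83 and 5.22 with oligo 1, 6.09, 5.58 and 5.44 with oligo 2, 5.88, 5.72 and 5.63 with sirEGFP and 6.05, 6.18 and 5.83 in Mock. H4c14, which lies in a cluster apart from the main one, had 7.28, 7.46 and 7.13 with oligo 1, 7.76, 7.75 and 7.60 with oligo 2, 7.90, 7.82 and 7.88 with sirEGFP and 8.12, 8.37 and 7.91 in Mock. For both genes the oligo 1 arrays did not overlap those of any other group, which is a description without a share over all probe sets. Against Mock both fell, H4c6 by 1.00 on the log2 scale (adjusted p = 0.0262 in limma) and H4c14 by 0.85 (adjusted p = 0.0157). H4c6 lost that call without any 1 of the Mock or oligo 1 arrays (adjusted p up to 0.109), and H4c14 lost it without Mock array 1, Mock array 2 or oligo 1 array 3 (adjusted p up to 0.082). H4c3, H4c8, H4c9 and H4f16 had changes of -0.37 to -0.28 with oligo 1 and -0.23 to 0.04 with oligo 2 against sirEGFP, none of them called.

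**Figure D2:**
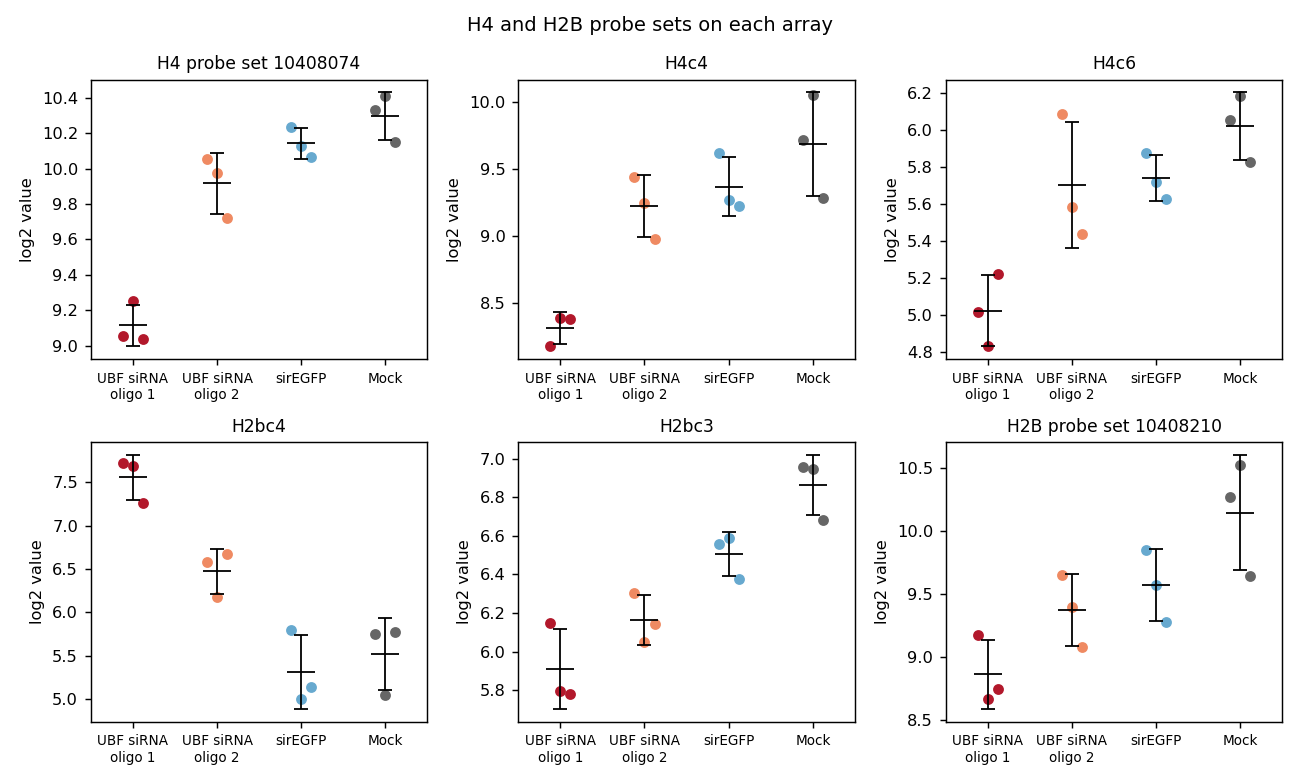
Log2 value on each array (points) of 3 H4 and 3 H2B probe sets with oligo 1, oligo 2, sirEGFP and Mock; horizontal bars are means and error bars are SD (n = 3). In the H4 panels the oligo 1 arrays lie below all others, and in the H2bc4 panel they lie above all others at 7.26 to 7.72.

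H2B, which joins H2A in the dimers on either side of the tetramer, showed opposite changes among its genes. In the main fit, H2bc4 was the single member that rose, and it rose with oligo 1. It stood at 7.72, 7.68 and 7.26 with oligo 1, at 6.58, 6.18 and 6.67 with oligo 2, at 5.80, 5.0 and 5.14 with sirEGFP and at 5.75, 5.05 and 5.77 in Mock. All 6 knockdown arrays were above all 6 control arrays, and the oligo 1 arrays were above those of oligo 2. Arrays of both oligos lay above all control arrays in 0.986% of all probe sets, and among the members in H2bc4 alone.

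The level of H2bc4 was 4.73-fold higher with oligo 1 than with sirEGFP, a log2 change of 2.24 ± 0.26 (SE; adjusted p = 0.00866 in limma). With oligo 2 it was 2.24-fold higher, a log2 change of 1.16 ± 0.26 whose adjusted p of 0.0751 did not pass, while with the replicate block it was 0.0393. The oligos differed by 1.08 with an adjusted p of 0.0722. The mean of both oligos lay 1.70 ± 0.22 (SE) above sirEGFP (adjusted p = 0.0134), with a 95% interval of 1.22 to 2.19. That call was lost without sirEGFP array 2 (adjusted p = 0.0787) and without sirEGFP array 3 (0.0913). Without the 3 arrays that stood apart the mean change was 1.80 (adjusted p = 0.0661) and the change with oligo 1 was 2.19 (adjusted p = 0.143).

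A group of 7 H2B probe sets named 14 or 15 histone symbols each, H2bc4 among them, and these were lower with oligo 1, called against Mock only. Averaged over the 7, the level was 8.95 ± 0.23 with oligo 1, 9.44 ± 0.27 with oligo 2, 9.59 ± 0.31 with sirEGFP and 10.19 ± 0.44 in Mock (SD, n = 3 each). Oligo 1 arrays ranged over 8.76 to 9.21, oligo 2 arrays over 9.17 to 9.70, sirEGFP arrays over 9.29 to 9.91 and Mock arrays over 9.71 to 10.55. Neighbours in this order overlapped, while oligo 1 overlapped neither sirEGFP nor Mock, and the highest oligo 2 array lay just below the lowest Mock array.

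Probe set 10408210 shows the pattern: it had 9.18, 8.67 and 8.75 with oligo 1, 9.65, 9.39 and 9.08 with oligo 2, 9.85, 9.57 and 9.28 with sirEGFP and 10.27, 10.52 and 9.64 in Mock. Against Mock all 7 fell with oligo 1, with log2 changes of -1.35 to -1.10 and adjusted p of 0.0371 to 0.0423 in limma. Leaving out Mock array 1 or 2, sirEGFP array 2, oligo 2 array 2 or any oligo 1 array ended all 7 calls, and the adjusted p then reached 0.160. Leaving out sirEGFP array 3 or oligo 2 array 1 or 3 ended some of them. Against sirEGFP the changes of -0.70 to -0.55 were not called. With oligo 2 the changes were -0.19 to -0.13 against sirEGFP. The change of sirEGFP against Mock was -0.66 to -0.55 in all 7, each with an unadjusted p under 0.05 and none called by limma.

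H2bc3 and H2bc14, H2B genes with their own probe set, fell with oligo 1 against Mock. H2bc3 had 6.15, 5.80 and 5.78 with oligo 1, 6.30, 6.05 and 6.14 with oligo 2, 6.56, 6.59 and 6.38 with sirEGFP and 6.96, 6.95 and 6.68 in Mock. All 6 knockdown arrays were below all 6 control arrays, and sirEGFP was below Mock without overlap. Its change against Mock was -0.96 with oligo 1 (adjusted p = 0.0123 in limma) and -0.70 with oligo 2 (adjusted p = 0.0322). The latter was the only call of a member with oligo 2 in the main fit. Against sirEGFP the change of H2bc3 was -0.60 with oligo 1 and -0.34 with oligo 2, neither called. The oligo 2 call was lost on leaving out any 1 of 7 arrays, with an adjusted p up to 0.138, and that of oligo 1 without Mock array 1, Mock array 2 or oligo 1 array 3, with an adjusted p up to 0.0616.

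H2bc14 had 8.42, 8.16 and 8.25 with oligo 1, 8.72, 8.50 and 8.41 with oligo 2, 9.14, 8.69 and 8.79 with sirEGFP and 9.47, 9.66 and 8.98 in Mock. Arrays of both oligos lay below those of Mock, and oligo 2 overlapped sirEGFP. Its change against Mock was -1.09 with oligo 1 (adjusted p = 0.0206 in limma) and -0.83 with oligo 2 (adjusted p = 0.0533). The oligo 1 call was lost without Mock array 1 or 2 or oligo 1 array 2 or 3, with an adjusted p up to 0.0936. A probe set naming H2bc6 together with the linker histone gene H1f4 stood at 6.56, 6.29 and 6.44 with oligo 1, 6.82, 6.56 and 6.69 with oligo 2, 6.98, 7.06 and 6.87 with sirEGFP and 7.12, 7.14 and 6.97 in Mock. It changed by -0.65 with oligo 1 against Mock (adjusted p = 0.0260), a call lost without any 1 of the Mock arrays or oligo 1 arrays 2 or 3, with an adjusted p up to 0.106. It could not be assigned to either gene.

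Across all members, the knockdown arrays lay below all control arrays for H2bc3, H4c14, the H4 probe set 10408074 and the H2bc6 and H1f4 probe set, where 0.653% of all probe sets did so. The other H2B genes with a probe set of their own were not called in any comparison. H2bc21, which lies in a smaller cluster, had 6.07, 7.41 and 6.52 with oligo 1, 5.94, 6.15 and 6.55 with oligo 2, 6.04, 5.94 and 5.98 with sirEGFP and 5.57, 5.73 and 6.06 in Mock. Scatter was widest with oligo 1, and the mean of both oligos lay 0.45 above sirEGFP (adjusted p = 0.600 in limma). H2bu2 had a mean change of -0.32 (adjusted p = 0.374), and H2bc1, H2bc8, H2bc9, H2bc18 and H2bc22 had mean changes of -0.27 to -0.09.

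H3 and H2A gave no call. The 10 H3 probe sets all named the same 12 genes, so they are not independent measurements. Averaged over the 10, the level was 7.59 ± 0.50 with oligo 1, 8.02 ± 0.16 with oligo 2, 8.09 ± 0.45 with sirEGFP and 8.55 ± 0.51 in Mock (SD, n = 3 each). The spread within groups was wider than for H4 with oligo 1, with sirEGFP and in Mock, but not with oligo 2, and oligo 1 arrays at 7.17 to 8.15 overlapped sirEGFP arrays at 7.68 to 8.58. Changes against sirEGFP were -0.61 to -0.45 with oligo 1 and -0.22 to -0.02 with oligo 2. Against Mock they were -1.04 to -0.89 with oligo 1, with adjusted p of 0.206 to 0.273 in limma.

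Of the H3 genes with their own probe set, H3c15 changed by 0.55, H3c7 by -0.11 and H3c4 by -0.23 with oligo 1 against sirEGFP, none called. The 2 probe sets counted as H2A named 18 or 19 histones, mostly H2A genes, but also H3c4, H2ax and H2af-ps2. Probe set 10409220 named H2aj as well. They averaged 9.38 ± 0.37 with oligo 1, 9.52 ± 0.17 with oligo 2, 9.74 ± 0.24 with sirEGFP and 10.00 ± 0.33 in Mock (SD, n = 3 each). H2ac4 had the lowest change of any member with the mean of both oligos, and it was not called. It had 4.41, 4.66 and 5.11 with oligo 1, 5.28, 4.89 and 5.42 with oligo 2, 6.34, 5.65 and 5.32 with sirEGFP and 5.36, 6.33 and 5.27 in Mock. Both controls lay above all oligo 1 arrays, and these controls ranged over a whole log2 unit, so that the mean change of -0.81 had an adjusted p of 0.317. H2ac1, H2ac8, H2ac15 and H2aw had mean changes of -0.23 to 0.08.

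**Figure D3:**
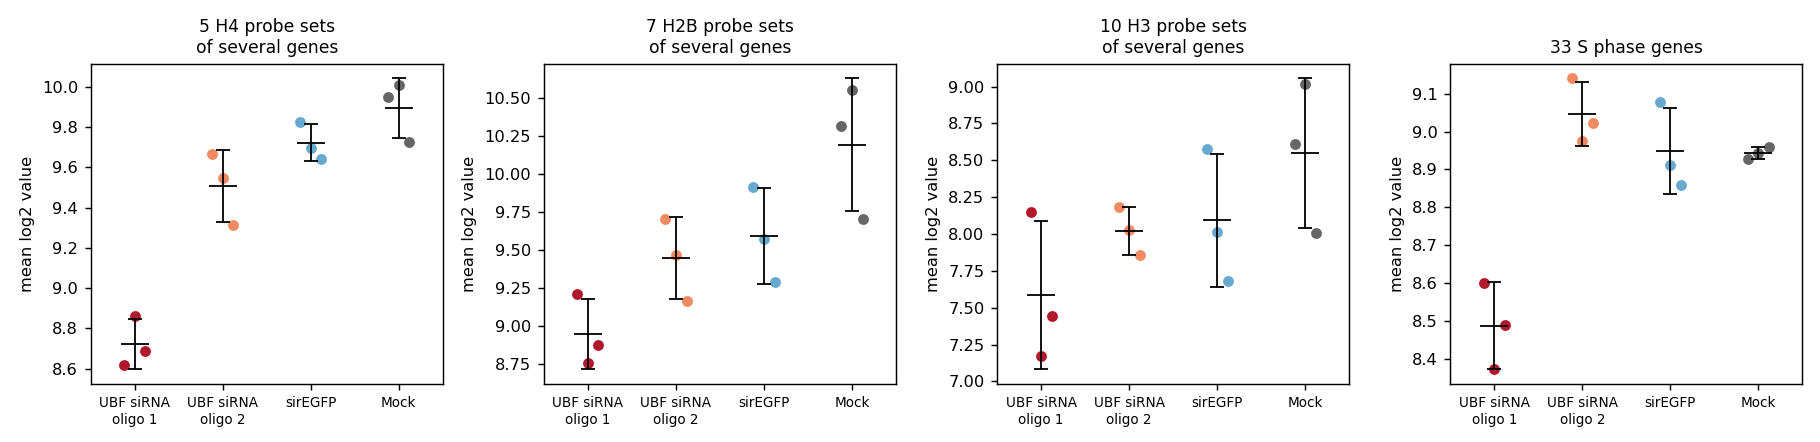
Mean log2 value on each array over 5 H4, 7 H2B and 10 H3 probe sets naming several genes, and over 33 S phase genes, with oligo 1, oligo 2, sirEGFP and Mock (points are arrays, bars are means and SD, n = 3). The oligo 1 arrays lie lowest in the H4 panel at 8.62 to 8.86 and in the S phase panel at 8.37 to 8.60, and overlap other groups in the H3 panel.

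Of 8 variant probe sets with a single symbol, 1, H2az2, was called lower with oligo 1 against Mock and against oligo 2. Lower calls made up 0.529% and 1.0% of all probe sets in those comparisons. H2az2 encodes one of the H2A.Z proteins, which replace H2A near promoters. It had 8.42, 8.15 and 8.11 with oligo 1, 9.36, 9.18 and 9.04 with oligo 2, 8.56, 8.74 and 8.45 with sirEGFP and 9.12, 9.06 and 8.72 in Mock. The oligo 1 arrays were below all others and the oligo 2 arrays above those of sirEGFP, so the oligos stood on opposite sides of that control. This held for sirEGFP only: oligo 2 overlapped Mock, with group means of 9.19 and 8.97. Oligo 1 lay below oligo 2, with a difference of -0.97 ± 0.15 (SE; adjusted p = 0.0114 in limma). Against sirEGFP the change was -0.36 with oligo 1 (adjusted p = 0.425 in limma) and 0.61 with oligo 2 (adjusted p = 0.105). Neither was called in the main fit, and with the replicate block the oligo 2 change had an adjusted p of 0.0385. Against Mock oligo 1 gave -0.74 (adjusted p = 0.0445 in limma). The difference between the oligos was lost without oligo 1 array 3 (adjusted p = 0.0577) or oligo 2 array 1 (0.0526), and was -1.09 (adjusted p = 0.184) without the 3 arrays that stood apart. The call against Mock was lost on leaving out any 1 array but Mock 3, with an adjusted p up to 0.173.

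The other H2A.Z gene, H2az1, was read by 2 probe sets, whose changes with oligo 1 against sirEGFP were -0.15 and -0.13 and with oligo 2 were 0.21 and 0.22. Macroh2a1 encodes a large H2A variant that is enriched in silent chromatin. It had 8.70, 7.53 and 8.18 with oligo 1, 9.45, 9.07 and 9.15 with oligo 2, 8.45, 7.96 and 7.87 with sirEGFP and 7.90, 8.30 and 8.25 in Mock. The oligo 2 arrays were above all others. Their change against sirEGFP was 1.14 ± 0.26 (SE), a level 2.20-fold higher, with an adjusted p of 0.0947 in limma, and 1.31 (adjusted p = 0.0250) without the 3 arrays that stood apart. With oligo 1 the change was 0.04 and the arrays overlapped both controls.

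Macroh2a2, its relative, had 6.54, 6.69 and 6.50 with oligo 1, 6.95, 7.09 and 6.84 with oligo 2, 6.77, 7.30 and 7.08 with sirEGFP and 6.88, 7.04 and 7.37 in Mock. The oligo 1 arrays were below all others, with a change of -0.48 against sirEGFP that was not called (adjusted p = 0.286 in limma). H2ax, whose product is phosphorylated at DNA breaks, had 8.0, 7.37 and 7.17 with oligo 1, 7.80, 7.76 and 7.59 with oligo 2, 7.36, 7.32 and 7.26 with sirEGFP and 7.46, 7.74 and 7.28 in Mock. Oligo 2 was above sirEGFP without overlap and overlapped Mock, and the mean change of 0.31 was not called (adjusted p = 0.602). H2aj and H3f3a had mean changes of 0.15 and 0.04.

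H3.3, a variant that is laid down outside S phase as well, was read mostly by probe sets that also name a second gene. The Gm6485 and H3f3b probe set 10500896 had 11.36, 11.12 and 11.04 with oligo 1, 11.76, 11.61 and 11.74 with oligo 2, 11.31, 11.38 and 11.21 with sirEGFP and 11.42, 11.50 and 11.40 in Mock. The oligo 2 arrays were above all others, and oligo 1 lay below oligo 2, with a difference of -0.53 (adjusted p = 0.0415 in limma). That call was lost on leaving out any 1 array but oligo 1 array 1, with an adjusted p up to 0.173. A second probe set of that pair differed by -0.41 (adjusted p = 0.0623). The 4 probe sets naming Gm12657 and H3f3a had mean changes of -0.02 to 0.07, and the one naming H2aw and Trim17 had 0.06.

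**Figure D4:**
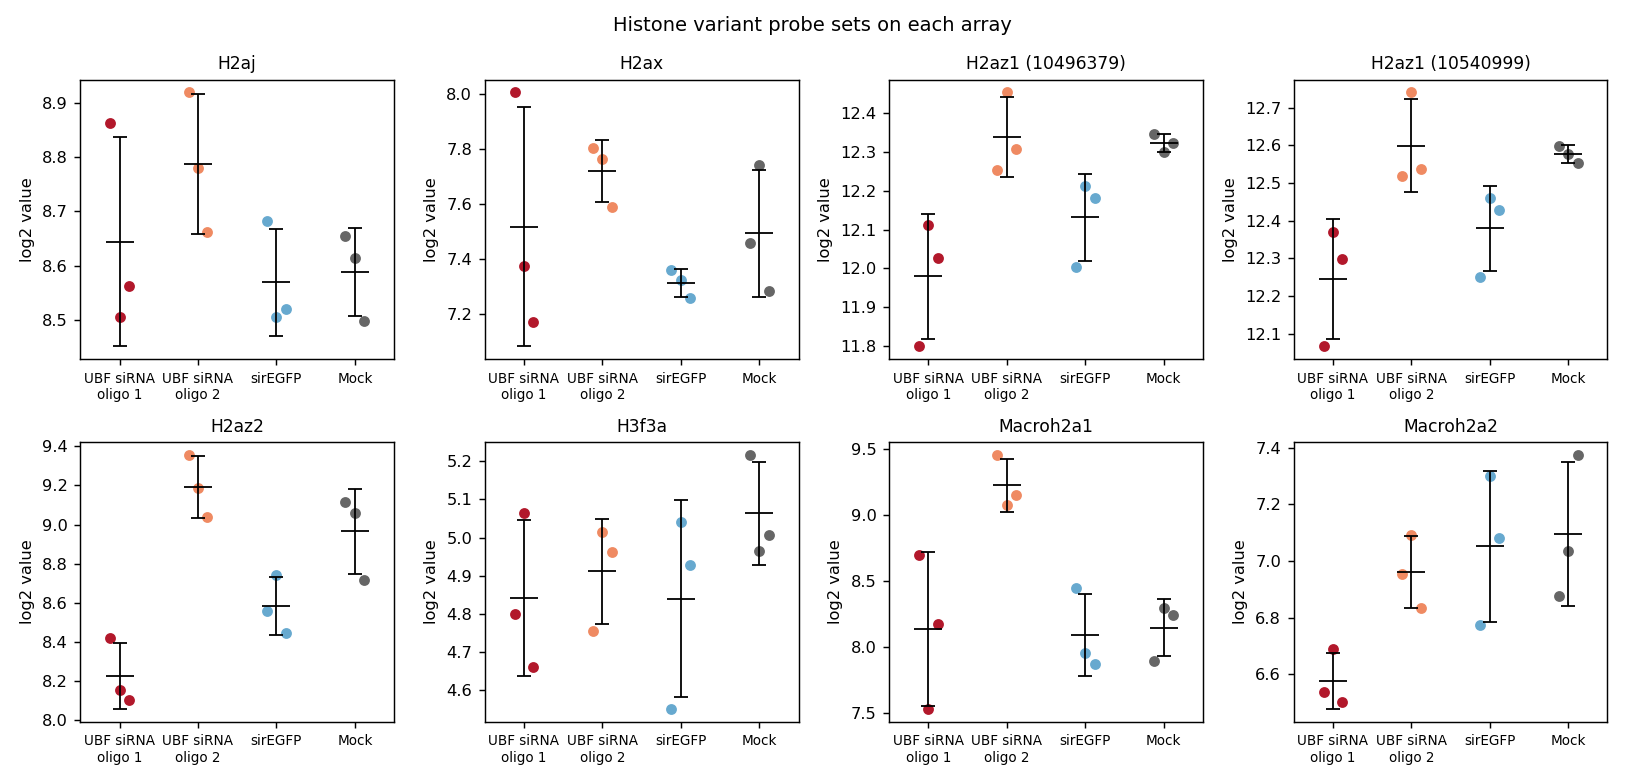
Log2 value on each array (points) of the 8 variant probe sets with a single symbol, with oligo 1, oligo 2, sirEGFP and Mock; bars are means and SD (n = 3). In the Macroh2a1 panel the oligo 2 arrays lie at 9.07 to 9.45, above all others, and in the H2az2 panel the oligo 1 arrays lie at 8.11 to 8.42, below all others.

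Of 33 genes of S phase and DNA replication, 9 fell and 0 rose with oligo 1 against sirEGFP, where 0.439% of all probe sets were called lower, and 30 of the 33 had a negative change, with a median of -0.56 against 0.0037 over all probe sets. With only the groups compared, without the 3 arrays that stood apart, without oligo 1 array 3 or without sirEGFP array 2, 0 of the 33 were called, and without any other single array 1 to 6. Over all probe sets, the first and second of these fits called 0. With oligo 2 none of the 33 was called by limma. An unadjusted p under 0.05 was found for 6, 4 higher and 2 lower, and for 10.3% of all probe sets. The median change of the 33 genes was 0.05. Their mean level per array was 8.37 to 8.60 with oligo 1, 8.98 to 9.14 with oligo 2, 8.86 to 9.08 with sirEGFP and 8.93 to 8.96 in Mock. Gins1, a part of the replication helicase, changed by -0.92 with oligo 1 (adjusted p = 0.0103, and 0.166 without the 3 arrays that stood apart), against -0.35 with oligo 2 (adjusted p = 0.247). Dtl, which marks replication factors for degradation, changed by -0.76 with oligo 1 (adjusted p = 0.0136), against 0.10 with oligo 2. Pola1, a subunit of the priming polymerase, changed by -0.97 with oligo 1 and Rrm1, of ribonucleotide reductase, by -0.70, both called. Their part in the histone changes was not tested.

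Among 27 histone mRNA genes and 28 histone chaperone genes, 1 and 1 were called lower with oligo 1 against sirEGFP. Lower calls made up 0.439% of all probe sets there. Oligo 1 lay below oligo 2 in 1 of the 27 and 2 of the 28, where 1.0% of all probe sets did. Against Mock, 1 of the 27 and 0 of the 28 were called higher with oligo 2. There, 1.45% of all probe sets were called in either direction, which includes the 0.504% called lower. Of 27 genes for histone mRNA transcription and 3′ processing, Eri1, an exonuclease that trims histone mRNA ends, fell with oligo 1 against sirEGFP by 0.72 on the log2 scale (adjusted p = 0.0318 in limma), and it changed by -0.09 with oligo 2. The difference between the oligos was -0.63 (adjusted p = 0.0353). Both calls of Eri1 were lost on leaving out any 1 of 8 arrays, and the change against sirEGFP was -0.72 (adjusted p = 0.224) without the 3 arrays that stood apart. Cpsf3, the endonuclease that cuts pre-mRNA ends, changed by 0.54 with oligo 1 and 0.58 with oligo 2 against sirEGFP, and its partner Cpsf2 by -0.56 with oligo 1 and -0.35 with oligo 2, none of them called (the adjusted p of Cpsf3 was 0.153 for oligo 1, 0.128 for oligo 2). Slbp, which binds the stem-loop, changed by -0.58 with oligo 1 (adjusted p = 0.104), against 0.03 with oligo 2. Of 28 chaperone and exchange genes, Nasp, which carries H3 and H4, changed by -0.63 with oligo 1 (adjusted p = 0.0489), against -0.01 with oligo 2. That call was lost on leaving out any 1 of the 12 arrays (adjusted p up to 0.185), and the change was -0.45 (adjusted p = 0.355) without the 3 arrays that stood apart. Asf1b, another H3 and H4 chaperone, and Hat1, which acetylates new H4, changed by -0.58 and -0.52 with oligo 1 and by -0.19 and -0.10 with oligo 2, and Spty2d1 changed by 0.10 with oligo 1 and 0.46 with oligo 2, none of them called. No gene of either list was called with oligo 2 against sirEGFP, where 4 of the 27 and 2 of the 28 had an unadjusted p under 0.05, as did 10.3% of all probe sets.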

How the data were processed

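RNA of 12 NIH3T3 cultures was measured on Affymetrix arrays after amplification with a NuGEN Applause kit, per the labels' protocols. The deposited values are on a log2 scale, as the values show; the authors used limma, per the submitters' processing notes, while the way probe sets were summarised and scaled is not given in the sources used here. That scale was taken from the value range of the deposited table. Array medians were 5.38 to 5.54, and no further scaling was applied in the main fit.

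Gene names come from the platform annotation, in which 21789 name 1 gene, 1621 several and 12102 none. All 35512 probe sets were fitted with limma 3.58.1 in R 4.3.3, with 4 group means and 8 residual degrees of freedom, no filter on low values and Benjamini-Hochberg adjustment over all of them in each of the comparisons; a call is an adjusted p under 0.05. The test was checked on simulated data with independent arrays of equal quality. That check does not cover the unequal array weights or correlated replicate numbers found here. The number of arrays, 3 per group, limits the precision. The fit had no block for the replicate number. Deviations of same-numbered arrays from their group means correlated above 0.1 in 11 of 18 pairs (-0.26 to 0.34); only oligo 2 and sirEGFP had all 3 pairs above it (0.17 to 0.34), so the blocked values of that comparison stand beside it. No label ties a number to a shared day or batch.

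The members and lists were chosen with earlier results of these data known, and so were the 3 arrays that stand apart. Genes named were Ubtf, every called member, the 3 highest and 3 lowest single-histone members not called, all variant probe sets and all naming several histones, up to 4 genes from each further list by smallest p for the mean of both oligos, and the 5 genes most like the member of smallest p; other single-symbol members were named to complete a group. Alternatives were median centring, quantile normalization, leaving out the dimmest 25% of probe sets, 1 probe set per gene, only the groups compared, array weights, an intensity trend, a replicate block, other references, and leaving out each array or the 3 that stand apart; for the further gene lists, the fits that change groups, weights, block or arrays were chosen after seeing the data.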

Additional observations from a re-analysis of the deposited data

Results flagged for a closer look

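The direct test between the oligos called 8 member probe sets, all lower with oligo 1 than with oligo 2. The log2 differences were -0.97 for H2az2, -0.91 for H4c4 and -0.53 for the Gm6485 and H3f3b probe set. The H4 probe sets naming 11 genes differed by -0.80 (10408074), -0.80 (10408243), -0.78 (10403957), -0.78 (10408092) and -0.77 (10404067), and 10403957 and 10408092 hold identical values. Both oligos are labelled as targeting the same gene, and Ubtf stood at 7.64 to 8.0 with oligo 1 and at 7.49 to 7.90 with oligo 2.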

How the results depend on the processing

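Counts of called members depended on the fit. With array weights, oligo 1 array 3 had a weight of 9.67, against 0.432 and 0.430 for oligo 1 arrays 1 and 2. The weighted counts with oligo 1 therefore rest mostly on that array. For the mean of both oligos against sirEGFP, 5 members became 2 with median centring, 3 with quantile normalization, 1 with 1 probe set per gene, 1 with only the groups compared, 10 with array weights, 11 with the mean of both controls as the reference, 11 with Mock as the reference and 0 without the 3 arrays that stand apart, and 0 to 6 when single arrays were left out; of all probe sets, 163 became 40 with only the groups compared, 1191 with array weights and 4 without those arrays. For oligo 1 against sirEGFP, 7 became 0 with only the groups compared, 24 with array weights, 0 without those 3 arrays, and 1 to 7 on leaving out single arrays; of all probe sets, 244 became 0, 3837 and 0 in these 3 fits, and 411 with a replicate block. For oligo 2 against sirEGFP, 0 became 3 with 1 probe set per gene, 2 with array weights and 2 with a replicate block. Leaving out single arrays gave 0 to 1, and every call gained in these fits was higher. Of all probe sets, 279 became 451, 684 and 382 in the first 3 of these fits. For oligo 1 against Mock, 20 became 8 with 1 probe set per gene, 0 with only the groups compared, 50 with array weights, 0 without those 3 arrays, and 6 to 19 on leaving out single arrays; of all probe sets, 339 became 549, 0, 2858 and 0 in these 4 fits. For oligo 2 against Mock, 1 became 0 with median centring and 0 with only the groups compared. It became 2 with quantile normalization, 2 without the dimmest 25% and 2 with an intensity trend. It became 4 with 1 probe set per gene (2 higher, 2 lower) and 3 with array weights (1 higher, 2 lower). It became 4 with a replicate block, all lower, and 0 to 2 on leaving out single arrays. Without those 3 arrays H2bc3, at -0.70, was no longer called, and a different member was called, higher. Of all probe sets, 514 became 40 with only the groups compared, 1062 with array weights and 725 with a block. For oligo 1 against oligo 2, 8 became 5 with 1 probe set per gene, 0 with only the groups compared, 19 with array weights, 0 without those 3 arrays, and 0 to 7 on leaving out single arrays; of all probe sets, 524 became 732, 6, 3269 and 0 in these 4 fits. With 1 probe set per gene, 32 members were tested and fewer tests were adjusted for; the other causes were not tested. Between sirEGFP and Mock no alternative gave a call. Over single members, 297 values lost their call, 121 gained one and 0 changed sign with a call. Same-numbered arrays correlated best in 23 of 36 array and group pairs, and the block changed no other count of members by over 1.5 times.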

Other observations

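Linker histones, which bind the DNA between nucleosomes, split in direction. Of 6 measured, H1f2 rose with oligo 1 by a log2 change of 0.86 against sirEGFP (adjusted p = 0.0447 in limma) and 0.86 against Mock (adjusted p = 0.0391), and it changed by 0.40 with oligo 2 against sirEGFP (adjusted p = 0.409). H1f5 changed by -0.89 with oligo 1 against Mock (adjusted p = 0.0292) and by -0.52 against sirEGFP (adjusted p = 0.224). The difference between the oligos was not called for either gene. Without the 3 arrays that stood apart, and with only the groups compared, none of these linker histone calls remained; the adjusted p without the 3 arrays was 0.480 and 0.427 for H1f2 and 0.268 for H1f5.

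Among 11 inhibitors of cyclin-dependent kinases and related genes of cell cycle exit, Cdkn2c, which binds CDK4 and CDK6, was higher with oligo 2 by 1.15 against sirEGFP (adjusted p = 0.00561 in limma) but by 0.18 against Mock, which was not called (adjusted p = 0.729). With oligo 1 it changed by 0.21 against sirEGFP (adjusted p = 0.738) and was called lower against Mock, at -0.76 (adjusted p = 0.0395, and 0.234 without the 3 arrays that stood apart). The oligos differed by -0.94 (adjusted p = 0.0119). Cdkn2c lay -0.97 lower with sirEGFP than in Mock, which was not called (adjusted p = 0.614). Btg2, an inhibitor of proliferation, changed with oligo 2 by 0.91 against sirEGFP (adjusted p = 0.0573, and 0.0256 with the replicate block) and by 0.98 against Mock (adjusted p = 0.0309), and with oligo 1 by 0.12 and 0.20, neither called.

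Over the 12 arrays, the named genes whose levels most resembled H2bc4 were Xdh, Edil3, Ift172, Naip5 and Prr13, with Pearson r of 0.943 to 0.963. The arrays share their groups, so this is a description only.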
